A study of Mus musculus with 14 samples.

Results

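The genes described here take glucose into a T cell, break it down to pyruvate and lactate, and respond to low oxygen. They are 35 genes of 25124 in the count table, listed by function (glucose and lactate transporters, glycolytic enzymes, lactate dehydrogenases, side reactions and flux control, and hypoxia-linked genes) and found by symbol. All 35 were in the table and all 35 passed the filter on low counts that left 13434 genes for testing. Reads were counted in 14 Smart-seq2 libraries, a full-length cDNA method for small inputs without molecular identifiers.

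The cells came from AE17-OVA tumours, a mouse mesothelioma line carrying ovalbumin, grown under the skin of female C57BL/6 mice aged 8 to 12 weeks. All groups shared the genotype label GATIR Foxp3Cre-rfp Gata3Cre-yfp, in which red fluorescence follows Foxp3. Tumours were collected on day 13, after an intraperitoneal dose on day 10 of 200 µg of either the PD-L1 antibody MIH5 or the isotype antibody 2A3. Sorting on CD4, CD25, the red reporter and PD1 gave CD4 T helper cells (2 isotype and 3 anti-PD-L1 libraries), regulatory T cells (Tregs) without PD-1 (2 and 2) and Tregs with PD-1 (2 and 3). The labels call the replicates biological without naming animals, so the p-values cover only the variation among these libraries, which may in part be technical. Whether a level reflects more expressing cells or more RNA in each cell cannot be told apart in bulk RNA.

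Glycolysis converts glucose to pyruvate in the cytosol, and lactate dehydrogenase then turns pyruvate to lactate, which leaves through monocarboxylate transporters. Activated T cells are known for a strong glycolytic programme, whereas Tregs are described as relying more on mitochondrial oxidation. Hypoxia-inducible factor 1, whose oxygen-regulated subunit is encoded by Hif1a, drives many of these genes when the prolyl hydroxylases that mark it for destruction lack oxygen.

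Total counts per library ran from 10638848 to 15030804. The 3 anti-PD-L1 libraries that are CD4 T cell replicate 3, PD-1- Treg replicate 2 and PD-1+ Treg replicate 3 held 2767, 2966 and 2929 counts of 4 Y-linked genes, against at most 1 in any other library, although the labels give female mice. All 3 carry the number 3 in the brackets of their titles, which no other library does. The labels do not say whether this number marks a shared source. Results that change without these 3 libraries are given below both ways. Il2ra, the CD25 gene of the sort, stood at 192 to 662 CPM (counts scaled to library size) in Tregs and at 13.4 to 79.5 CPM in CD4 T cells. Foxp3 spanned 114 to 198 CPM in PD-1- Tregs, 15.9 to 156 in PD-1+ Tregs and 16.3 to 55.0 in CD4 T cells, so PD-1+ Tregs overlapped CD4 T cells in this defining marker.

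Promoters of these genes were read for the core of the hypoxia response element. RefSeq windows (GRCm38.p6, the same build as mm10) of the 250 bases before a start site were found for 33 of the 35 genes; Galm and Slc2a3 had no entry. The motif ACGTG, or CACGT on the other strand, was present in at least 1 window of 19 of the 33 (57.6%), against 18.5% of 27025 genes with a window. GCGTG, or CACGC, was present in 21 of the 33 (63.6%), against 30.9% of genes. CACGTG, which contains ACGTG on both strands and is also the E-box letters, was present in 6 of the 33 (18.2%), against 6.86%. The median GC content was 60.4% in member windows and 52.4% in all 32851 windows, and its part in these shares was not tested. The 33 genes had 47 windows, more per gene than the 27025, which were not limited to the genes tested here. The list was chosen to hold glycolytic and hypoxia-linked genes, so these shares describe the list and do not bear on the treatment changes.

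Windows are shown for 4 members of the treatment results below that hold ACGTG, and for Tpi1, which does not, to show both cases. Of the 7 genes that separate the arms in all 3 populations, 4 hold ACGTG (Slc2a1, Aldoa, Pgk1 and Hif1a), and Gpi1, Aldoc and Tpi1 do not. Capitals mark ACGTG or GCGTG on either strand, and each run is 5′ to 3′ on the gene's strand. The Tpi1 run stops where an annotated exon begins. A match describes letters, not a binding site.
Ldha (chr7:46845554-46845803, + strand): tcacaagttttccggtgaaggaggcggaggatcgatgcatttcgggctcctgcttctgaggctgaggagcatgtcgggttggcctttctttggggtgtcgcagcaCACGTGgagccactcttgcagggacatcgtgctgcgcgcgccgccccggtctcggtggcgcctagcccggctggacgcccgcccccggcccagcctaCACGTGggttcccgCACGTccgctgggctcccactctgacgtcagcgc
Hif1a (chr12:73907617-73907866, + strand): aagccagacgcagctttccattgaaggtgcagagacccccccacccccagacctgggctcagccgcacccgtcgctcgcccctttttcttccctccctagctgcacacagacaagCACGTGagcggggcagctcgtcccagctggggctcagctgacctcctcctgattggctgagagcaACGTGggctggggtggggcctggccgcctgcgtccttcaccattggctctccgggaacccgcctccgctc
Pgk1 (chrX:106186850-106187099, + strand): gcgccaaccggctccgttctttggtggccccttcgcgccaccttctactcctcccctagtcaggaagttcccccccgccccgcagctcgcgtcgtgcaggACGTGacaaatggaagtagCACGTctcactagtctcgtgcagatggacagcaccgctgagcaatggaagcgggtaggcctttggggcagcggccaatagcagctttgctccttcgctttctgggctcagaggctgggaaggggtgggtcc
Aldoa (chr7:126799255-126799504, - strand): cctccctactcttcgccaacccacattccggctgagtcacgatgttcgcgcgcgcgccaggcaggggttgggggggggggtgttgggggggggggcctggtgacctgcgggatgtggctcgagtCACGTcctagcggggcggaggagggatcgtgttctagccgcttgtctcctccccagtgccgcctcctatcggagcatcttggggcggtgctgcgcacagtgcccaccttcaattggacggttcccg
Tpi1 (chr6:124814297-124814408, - strand): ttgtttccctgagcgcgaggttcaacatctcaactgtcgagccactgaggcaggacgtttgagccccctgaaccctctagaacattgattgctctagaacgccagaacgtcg
Ldha held 5 matches to ACGTG counted on both strands, 4 of them from its 2 CACGTG palindromes, Hif1a held 3, Pgk1 2 and Aldoa 1. No match in the Tpi1 window says only that these letters are not in it.

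On the length-scaled RPKM scale, enzymes took 5 of the 6 highest mean levels among the 35 genes, and Mif the other. The mean over 14 libraries was 693 RPKM for Eno1 (enolase), 563 for Aldoa (aldolase A), 491 for Ldha (lactate dehydrogenase A), 387 for Pkm (pyruvate kinase) and 142 for Tpi1 (triose-phosphate isomerase). Mif, a cytokine gene that responds to hypoxia, had a mean of 228 RPKM. Gapdh stood at 62.0 RPKM. Mouse Gapdh has many processed copies, and the sources used here do not give how reads shared with copies were counted, so its level is uncertain. Vegfa, the angiogenic growth factor gene, was lowest with a mean of 0.161 RPKM, and it had no counts in 8 of 14 libraries. The 35 genes together took 0.642% to 0.673% of all counts in isotype CD4 T cells, 0.348% to 0.386% in isotype PD-1- Tregs and 0.601% to 0.656% in isotype PD-1+ Tregs. Under anti-PD-L1 the share was 0.696% to 0.959%, 0.830% to 0.973% and 0.631% to 0.975%. It was higher in every treated than in every isotype library of CD4 T cells and of PD-1- Tregs, while the PD-1+ ranges overlapped.

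**Figure D1:**
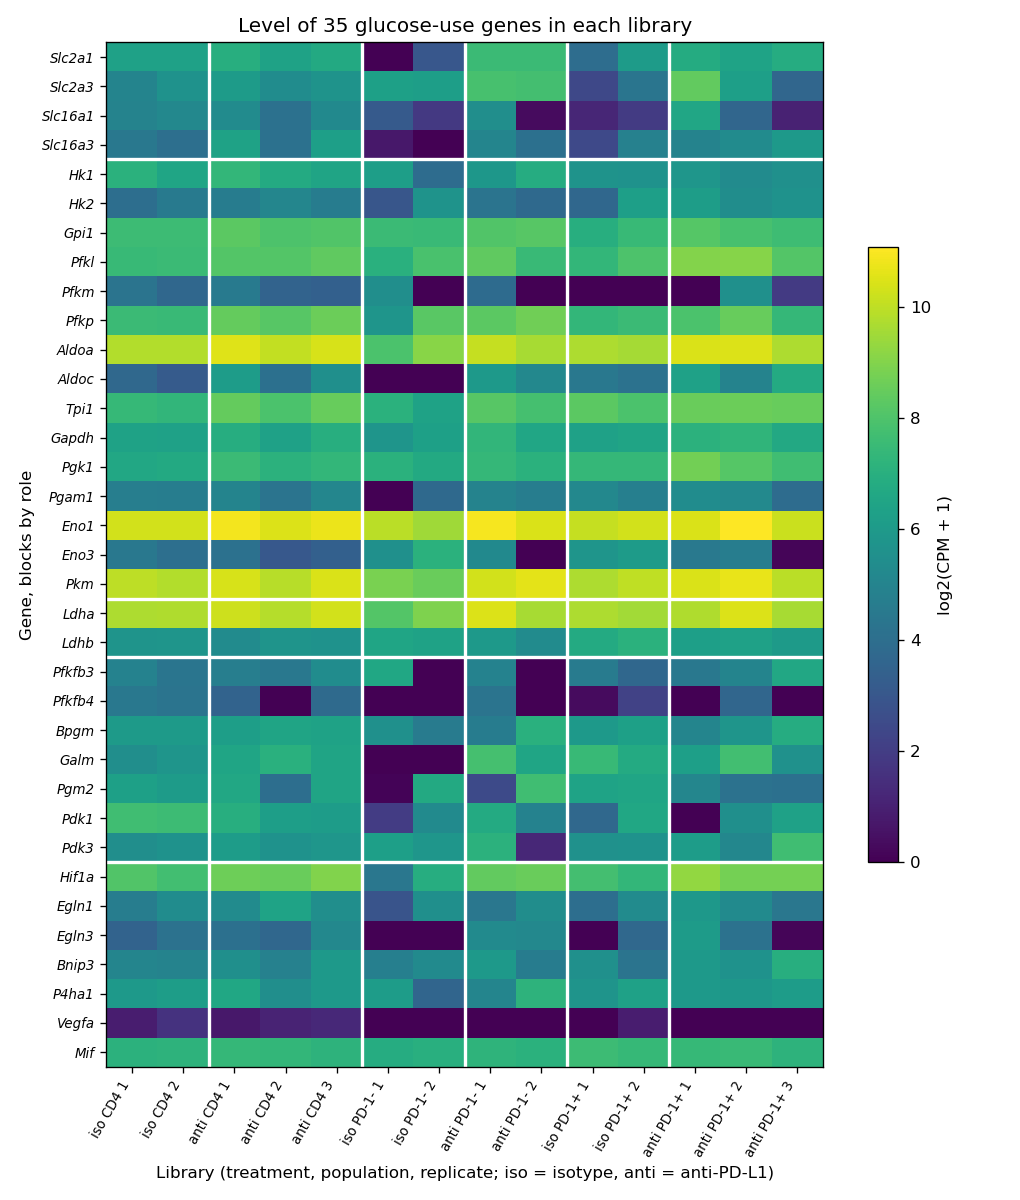
Level of each of the 35 genes (rows, in blocks by role) in each of the 14 libraries (columns), as log2(CPM + 1). Eno1, Aldoa, Ldha and Pkm are the brightest rows, and both isotype PD-1- Treg columns have Aldoc, Galm, Egln3 and Pfkfb4 at 0.

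The first comparison asked what anti-PD-L1 did to these genes in PD-1- Tregs, the Tregs sorted without the receptor of PD-L1. Of the 35 genes, 5 rose (Aldoc, Tpi1, Pkm, Ldha and Galm) and none fell. Across all tested genes 1.38% rose and 1.29% fell. Of the 35, 29 had a fitted change above 0 and 5 below, 12 had an unadjusted p under 0.05, where 20.1% of all genes did, and the median log2 change was 1.01 against 0.00 for all 13434 genes. It stayed 1.01 with the 4 genes at 0 in the isotype arm set to their lower bound.

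Pkm, the last glycolytic step (RefSeq gene span on GRCm38.p6, as for the genes that follow, chr9:59656576-59679372), stood at 456 and 372 CPM in isotype PD-1- Tregs and at 1267 and 1579 under anti-PD-L1. Both treated libraries lay far above both isotype libraries, a log2 change of 1.78 ± 0.27 (SE; edgeR quasi-likelihood adjusted p = 0.00580). Ldha, which makes lactate (chr7:46842274-46855627), had 1426 and 793 CPM when treated, against isotype levels of 275 and 491. Its arms did not overlap either, although the treated replicates differed widely, and the log2 change was 1.54 ± 0.36 (adjusted p = 0.0456). Tpi1, which equilibrates the triose phosphates (chr6:124810586-124814158), had 295 and 221 CPM when treated, against isotype levels of 133 and 82.7. Every treated library was higher, with a log2 change of 1.26 ± 0.30 (adjusted p = 0.0493).

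Aldoc and Galm were not detected in the isotype arm. Aldoc, the aldolase isoform best known from brain (chr11:78323073-78327781), had 0 counts in both isotype libraries and 62.1 and 35.6 CPM under treatment, at least 177-fold higher against a floor of 3 counts per library (adjusted p = 0.00887). Galm, galactose mutarotase, which interconverts the anomers of hexoses (chr17:80127458-80185032), also had 0 counts in both isotype libraries, against 221 and 89.3 CPM, at least 564-fold higher (adjusted p = 0.00109). Neither gene had a single count in the isotype arm, and both were above 35 CPM in each treated library. The floor covers counting error only, here and for the bounds below, and not the variation between libraries.

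**Figure D2:**
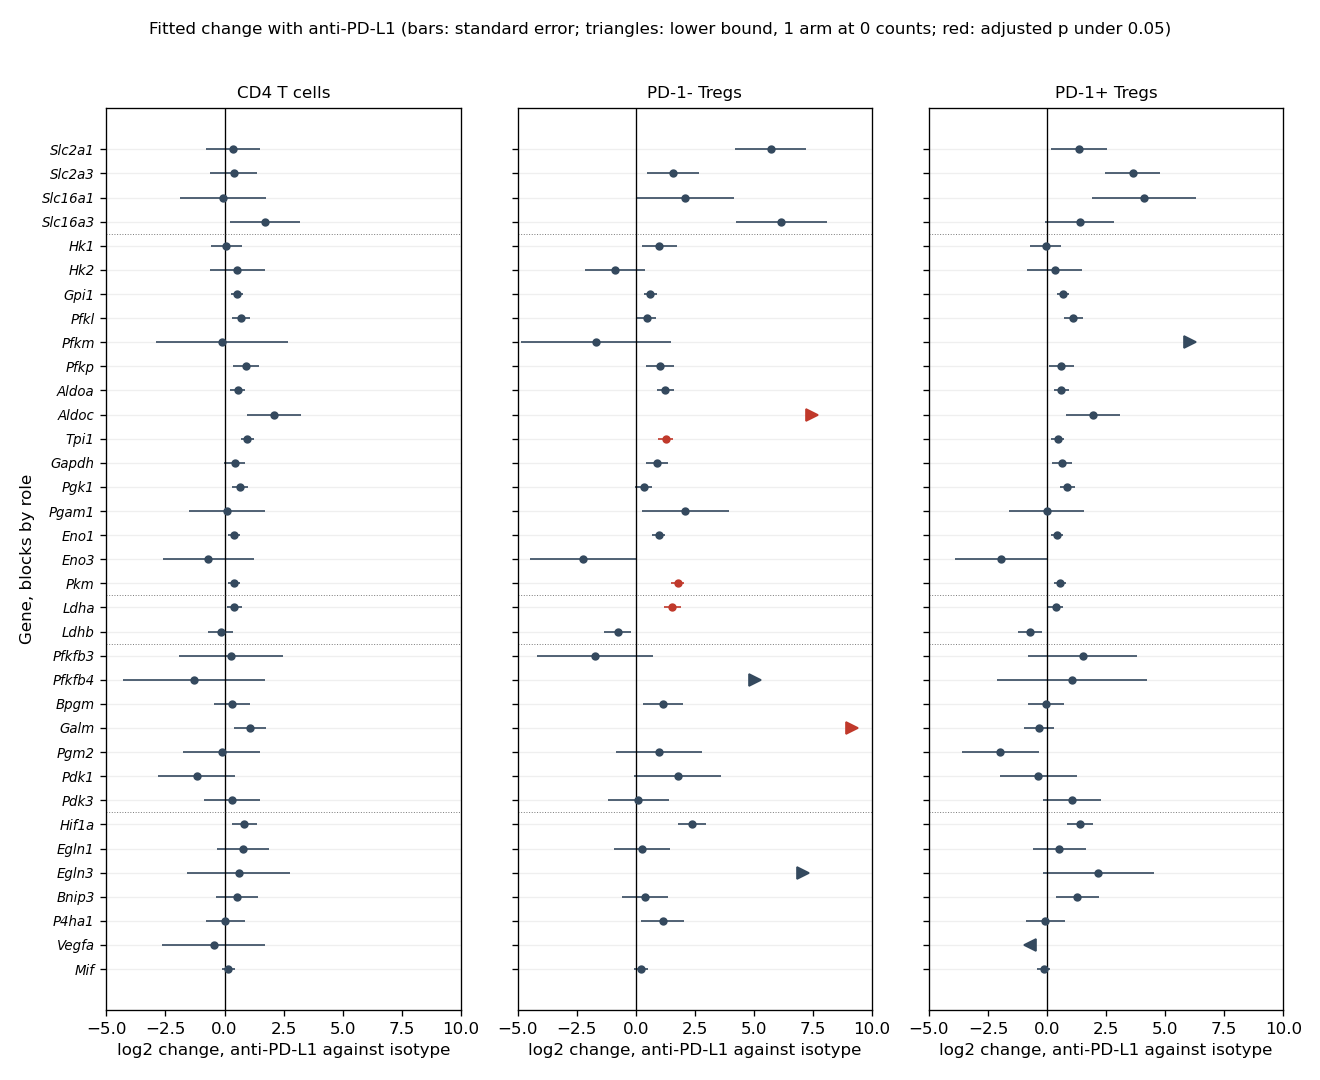
Fitted log2 change with anti-PD-L1 (x axis) for each of the 35 genes (y axis, in blocks by role), with 1 panel per population; points with bars are the estimate ± SE, triangles are lower bounds (1 arm at 0 counts), and red marks an adjusted p under 0.05. The 5 red genes are all in PD-1- Tregs; Vegfa is not drawn there because both arms had 0 counts.

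The transporters separated the arms without passing the test. Slc2a1 (GLUT1), the main inducible glucose transporter, stood at 0 and 7.15 CPM in isotype PD-1- Tregs and at 190 and 185 under anti-PD-L1, a log2 change of 5.71 ± 1.51 (adjusted p = 0.0696). Slc16a3 (MCT4), a lactate exporter, stood at 0.652 and 0 CPM against 31.9 and 15.98 (6.16 ± 1.93; adjusted p = 0.113). Slc2a3 (GLUT3), a high-affinity glucose transporter, stood at 77.7 and 73.0 CPM against 230 and 217, a log2 change of 1.57 ± 1.10 (adjusted p = 0.494). None of the 3 overlapped between arms, where 12.5% of all genes lay above without overlap. The lactate and pyruvate carrier Slc16a1 (MCT1) overlapped, at 7.82 and 2.62 CPM against 44.0 and 0.252.

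Of the 15 glycolytic enzymes, 12 had fitted changes above 0 in PD-1- Tregs, with a median of 0.97, and 10 had both treated libraries above both isotype libraries, where 12.5% of all genes did. Aldoa stood at 247 and 550 CPM against 1104 and 797 (log2 change 1.25 ± 0.35, adjusted p = 0.0809). Eno1 stood at 974 and 724 CPM against 1940 and 1395 (0.97 ± 0.28, adjusted p = 0.0855). These abundant enzymes were above the isotype arm in each treated library but missed the threshold. The muscle enolase Eno3 lay lower, at 45.6 and 133 CPM against 37.9 and 0. In the entry steps the arms overlapped: hexokinase Hk1 stood at 72.6 and 14.1 CPM against 57.9 and 116, Hk2 at 6.89 and 50.3 against 18.3 and 12.6, and the phosphofructokinase Pfkl at 129 and 240 against 327 and 182. Pfkp, the platelet-type phosphofructokinase, did not overlap, at 54.4 and 300 CPM against 310 and 406, nor did the isomerase Gpi1, at 184 and 182 against 268 and 293.

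Among hypoxia-linked genes, Hif1a stood at 20.1 and 119 CPM in isotype PD-1- Tregs and at 343 and 375 under anti-PD-L1 (log2 change 2.36 ± 0.59, adjusted p = 0.0550). Both treated libraries were higher, but the test was missed. Egln3, a HIF prolyl hydroxylase that is itself a hypoxia target, had 0 counts in both isotype libraries and 38.8 and 34.7 CPM under treatment, at least 133-fold higher (adjusted p = 0.132). The other hydroxylase, Egln1, overlapped, at 6.42 and 44.9 CPM against 19.8 and 41.7. Bnip3, a mitophagy receptor, stood at 26.4 and 38.4 CPM against 60.04 and 24.4, and P4ha1, a collagen prolyl hydroxylase subunit, at 68.0 and 11.2 against 31.8 and 142. Neither separated the arms. Vegfa had 0 counts in all 4 libraries. Of the 7 hypoxia-linked genes, 3 (Hif1a, Egln3 and Mif) lay above the isotype arm without overlap, where 12.5% of all genes did.

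Over the 35 genes, 18 had both treated PD-1- libraries above both isotype libraries, where 12.5% of all tested genes did, and 2 (Eno3 and Ldhb) had both below, where 14.0% did. Pkm, Aldoc and Galm kept their calls when any 1 of the 14 libraries was left out. Ldha kept its call in 4 of these 14 refits (adjusted p 0.0162 to 0.161) and Tpi1 in 2 (0.0218 to 0.148), Tpi1 only without isotype PD-1- replicate 1 or treated PD-1- replicate 2; leaving out isotype PD-1- replicate 2 raised the count of called members to 9. Without the 3 libraries with Y-linked counts 4 were called, and Tpi1 was not (adjusted p = 0.0566). With only the 4 PD-1- libraries in the fit no member was called, and the lowest adjusted p of the 5 was 0.620.

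Several facts moved with treatment in PD-1- Tregs, and their part in these results was not tested. The 8 neutrophil and mast cell markers summed to 0 CPM in both isotype libraries and to 56.9 and 17.5 in the treated ones, where 3 of the 8 were detected. Cd4, a gene of the sort, stood at 19.7 and 100.1 CPM against 295 and 160.0. Foxp3 stood at 114 to 186 CPM against 194 to 198, and Pdcd1, the PD-1 gene, at 21.7 to 39.9 against 45.7 to 46.5. Cd274, the PD-L1 gene, stood at 0 to 19.6 CPM against 105 to 154, while Il2ra overlapped. Rn45s, a ribosomal RNA gene, took 0.213% and 0.130% of counts against 0.318% and 0.368%. Actb took 6.53% and 8.71% of counts in the isotype libraries and 3.16% and 2.74% in the treated ones. The summed level of 8 listed dendritic cell markers was 1341 to 1495 CPM under isotype and 578 to 972 under treatment, with Zbtb46 and Xcr1 at 0 throughout. In isotype replicate 1, 5 of the 8 were at 0, which left Clec9a, Cd209a and Ccr7. This sum thus rests on few of the listed genes and is not a measure of dendritic cell content. The 12 macrophage and monocyte markers overlapped, at 338 to 967 against 386 to 745 CPM, with C1qa and Fcgr1 at 0 throughout.

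**Figure D3:**
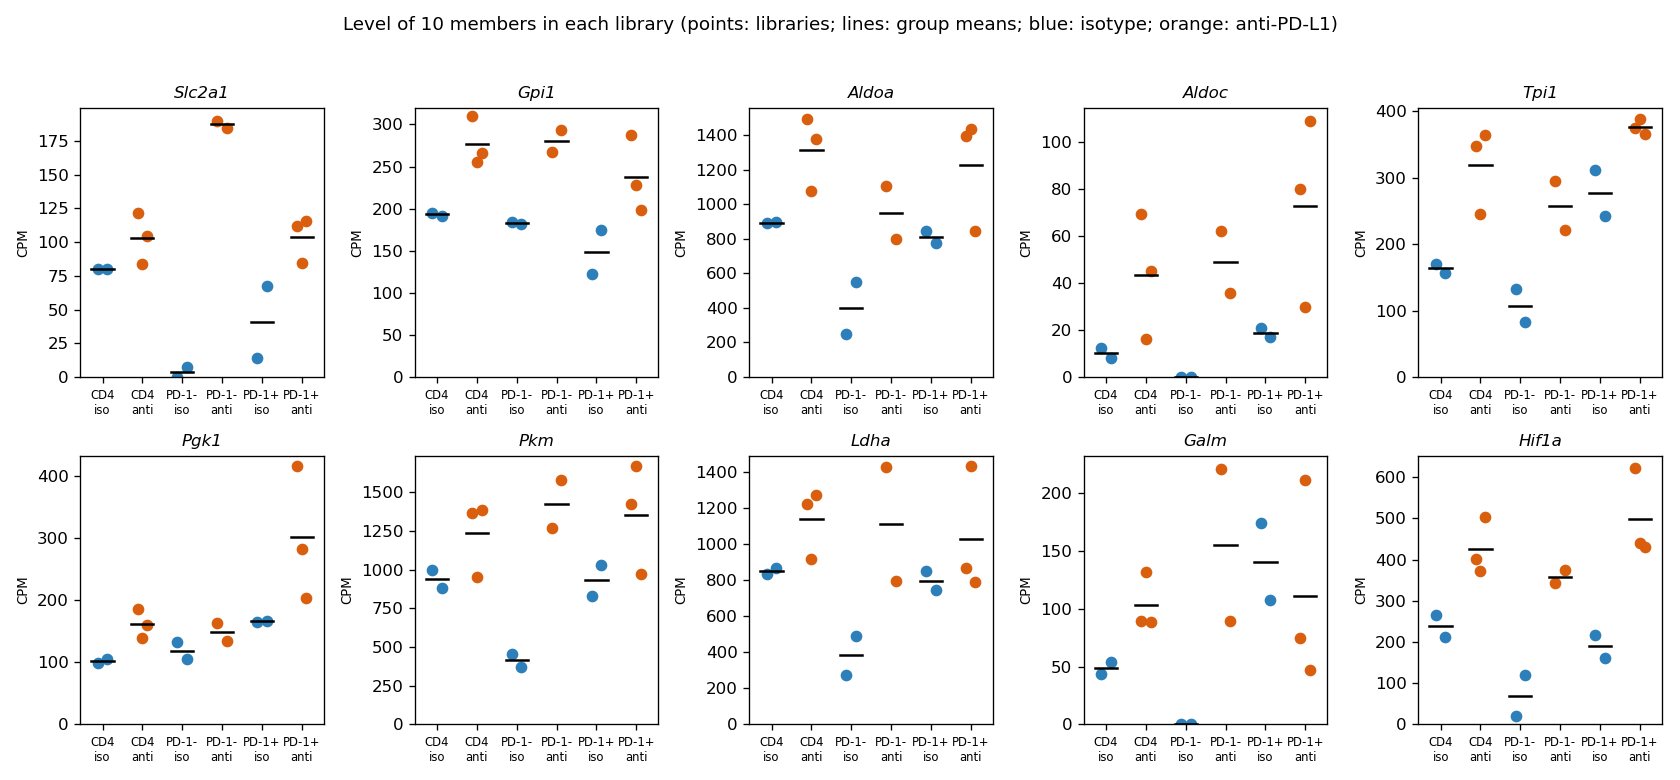
Level in CPM (y axes, from 0) of 10 members in each library (points), with group means (lines), for isotype (blue) and anti-PD-L1 (orange) in the 3 populations. Slc2a1, Gpi1, Aldoa, Aldoc, Tpi1, Pgk1 and Hif1a have every treated point above every isotype point within each population, while Galm has this in PD-1- Tregs and CD4 T cells but not in PD-1+ Tregs.

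In CD4 T helper cells, the non-Treg population of the sort, no member passed the test with edgeR or with DESeq2. DESeq2 called 0.402% of all genes. With edgeR 1 member (Tpi1) had an unadjusted p under 0.05, where 1.15% of all genes did. In this comparison 0.00744% of all genes rose and 0.00% fell, so almost nothing was called. The direction was still mostly upward: 27 of 35 changes were above 0, with a median of 0.39 against -0.01 for all genes. Tpi1 stood at 170 and 157 CPM under isotype and at 348, 245 and 364 under anti-PD-L1 (log2 change 0.96 ± 0.28, adjusted p = 1.00). Aldoc stood at 12.5 and 8.04 CPM against 69.5, 16.01 and 45.1 (2.08 ± 1.15), and Galm at 43.6 and 54.0 against 89.7, 132 and 88.3 (1.08 ± 0.68). All 3 genes separated the arms. Every treated library lay above both isotype libraries for 15 members, where 12.5% of all genes did, and below them for 3 (Ldhb, Pfkfb4 and Pdk1), where 15.5% did.

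Pdk1, a mitochondrial kinase that inhibits pyruvate dehydrogenase, was among the lower genes in CD4 T cells, at 206 and 193 CPM against 123, 72.8 and 68.3 (log2 change -1.18 ± 1.61, adjusted p = 1.00). Its relative Pdk3 stood at 43.4 and 49.4 CPM against 69.5, 48.7 and 55.1. Pdk1 made up 65.3% and 60.7% of the summed RPKM of Pdk1 and Pdk3 under isotype and 41.1%, 37.1% and 32.9% under treatment. Of the transporters, only Slc2a1 separated the arms, at 80.3 and 80.2 CPM against 122, 83.8 and 104, so its lowest treated library lay just above the isotype pair. Slc16a3 stood at 20.5 and 15.6 CPM against 83.0, 16.7 and 76.0, overlapping through treated replicate 2.

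Of 9 cell type marker lists, 6 also separated the arms in CD4 T cells, and their part in these changes was not tested. The 6 Treg markers summed to 413 to 466 CPM under isotype and 999.8 to 1415 with anti-PD-L1, the 8 T cell markers to 6280 to 6337 against 6536 to 7215, and the 7 erythroid markers to 50.8 to 59.8 against 169 to 223. The 8 neutrophil and mast cell markers summed to 16.1 to 19.2 CPM against 23.8 to 34.4, with Ly6g and Mcpt4 at 0 throughout. Lower with treatment were the 7 B cell markers, at 214 to 242 CPM against 58.3 to 115, and the 12 markers of mesothelial tumour and stroma, at 1112 to 1477 against 265 to 791. Rn45s took 0.691% to 0.799% of counts against 0.367% to 0.586%, and Actb 3.24% to 3.844% against 3.845% to 6.67%. Total counts were 12930566 to 13349619 under isotype and 13394528 to 15030804 under anti-PD-L1. Foxp3 stood at 16.3 to 20.8 CPM against 27.9 to 55.0, Il2ra at 13.4 to 13.8 against 39.1 to 79.5, and Pdcd1, the PD-1 gene, at 45.4 to 85.3 against 145 to 275. Cd4 and Cd274, the PD-L1 gene, overlapped. The part of these genes and of total counts was not tested either.

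In PD-1+ Tregs, which carry the receptor, no member was called either with edgeR, where 0.00744% of all genes rose and 0.00744% fell. DESeq2 called 2 members (Slc2a3 and Pfkm) and 4.60% of all genes. An unadjusted edgeR p under 0.05 was found for 8 members and 8.06% of all genes. Of the 35 changes, 24 were above 0, with a median of 0.59 against 0.00 for all genes. Hif1a had 622, 440 and 431 CPM with anti-PD-L1, against isotype levels of 218 and 162 (log2 change 1.39 ± 0.54, adjusted p = 0.596). Pgk1, the first ATP-making enzyme of glycolysis, stood at 166 and 166 CPM against 416, 282 and 204 (0.86 ± 0.34, adjusted p = 0.596). Pfkl stood at 162 and 249 CPM against 519, 543 and 273 (1.11 ± 0.39, adjusted p = 0.595). Each of the 3 separated the arms. Every treated library was above both isotype libraries for 11 members, where 7.69% of all genes were, and below for 3 (Eno3, Ldhb and Pgm2), where 11.5% were.

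The glucose transporters of PD-1+ Tregs varied between replicates. Slc2a3 stood at 4.33 and 18.9 CPM under isotype and at 343, 74.5 and 11.6 under anti-PD-L1, so treated replicate 3 fell among the isotype libraries. Slc2a1 stood at 14.4 and 67.1 CPM against 112, 84.3 and 115, with no overlap (log2 change 1.35 ± 1.18, adjusted p = 0.986). Galm, which rose in PD-1- Tregs, stood at 174 and 107 CPM against 75.1, 211 and 47.3, a log2 change of -0.34 ± 0.65 and the arms overlapped. Pkm stood at 830 and 1032 CPM against 1423, 1669 and 971, and Ldha at 850 and 746 against 867, 1432 and 788, each overlapping through treated replicate 3. In the same libraries 6 of the 9 marker lists separated the arms, and their part in these levels was not tested. The 12 macrophage and monocyte markers summed to 4941 to 7585 CPM with isotype and 3872 to 4861 with anti-PD-L1, and the 7 B cell markers to 257 to 435 against 38.3 to 82.4. The 6 Treg markers summed to 1794 to 2451 CPM against 2591 to 3135, the 7 erythroid markers to 0 to 18.2 against 27.1 to 156, the 8 neutrophil and mast cell markers to 4.50 to 15.2 against 17.5 to 38.3, and the 6 CD8 T and NK cell markers to 0 to 0.0849 against 2.66 to 52.8. Actb took 3.60% to 4.26% of counts against 5.88% to 7.27%, and Rn45s 0.209% to 0.255% against 0.0816% to 0.146%. Under isotype 10893 to 11312 genes had counts, against 9662 to 10884 under anti-PD-L1. The part of these measures was not tested. Pdcd1 stood at 85.6 to 115 CPM against 125 to 246, while Cd4, Foxp3, Il2ra and Cd274 overlapped.

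Set across the populations, 7 of the 35 genes had every anti-PD-L1 library above every isotype library within each of the 3 populations: Slc2a1, Gpi1, Aldoa, Aldoc, Tpi1, Pgk1 and Hif1a. Among all tested genes 0.625% did so (84 of 13434). Of the 7, Slc2a1 acts at glucose entry, Gpi1, the aldolases and Tpi1 at later steps, and Pgk1 at the first ATP-yielding step. The hexokinases, the phosphofructokinases and Gapdh, which act between these, each had this separation in only 0 to 2 of the 3 populations. The separation was narrow for Aldoa in PD-1+ Tregs, where the lowest treated library had 847 CPM and the highest isotype library 843, and for Slc2a1 in CD4 T cells, as given above. It was also narrow for Pgk1 in PD-1- Tregs, where the lowest treated library had 134.6 CPM and the median over the 4 libraries was 133.6. The count was 5 with upper quartile scaling (without Aldoa and Pgk1) and 5 with plain total counts (without Slc2a1 and Aldoa), and 11 without the 3 libraries with Y-linked counts. Only Ldhb had every treated library below every isotype library in each population, where 0.878% of all genes did. Its gap in CD4 T cells was narrow, with the highest treated library at 51.7 CPM and the lowest isotype library at 52.4. With upper quartile scaling Ldhb no longer separated the arms in each population. The labels do not say whether libraries of the 3 populations share animals, so the populations may not be independent repeats of the treatment.

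Averaged over the 3 populations, 5 members rose (Aldoc, Tpi1, Pkm, Galm and Hif1a) and none fell, where 0.722% of all genes rose and 0.506% fell. Fitted changes were above 0 for 30 of 35, with a median of 0.73 against 0.01 for all genes, and 17 had an unadjusted p under 0.05, where 14.8% of all genes did. Hif1a ranged from 20.1 to 266 CPM over the 6 isotype libraries (median 187) and from 343 to 622 over the 8 treated ones (median 416), a log2 change of 1.53 ± 0.32 (adjusted p = 0.0381). No treated library overlapped an isotype library, whatever its population. Pkm changed by 0.90 ± 0.15 (adjusted p = 0.0119) and Tpi1 by 0.89 ± 0.17 (adjusted p = 0.0236) on the log2 scale. For Aldoc (adjusted p = 0.0119) and Galm (adjusted p = 0.00233) the fitted average rests on the isotype PD-1- libraries at 0 and is not a fold; their mean levels were 55.8 against 9.70 CPM and 119 against 63.1 CPM. Slc2a1, Gpi1 and Hif1a were the 3 members with all 8 treated libraries above all 6 isotype libraries, where 0.149% of all genes were. When 1 library was left out, Galm kept the averaged call in 14 of 14 refits, Pkm in 11, Aldoc in 10, Tpi1 in 8 and Hif1a in 4 (adjusted p 0.000255 to 0.183); Hif1a kept it only in the 4 refits that left out a PD-1- Treg library. Without the 3 libraries with Y-linked counts the adjusted p of Hif1a was 0.103, and 4 members were called. With a replicate block by rep number or by the number in the title's brackets, 1 member was called. The main averaged test treats libraries of the 3 populations as independent, although the labels do not say whether they share animals.

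The treatment effect itself differed between populations for 1 member, Galm (edgeR interaction test, adjusted p = 0.00853), where 0.744% of all genes passed. As given above, its arms stood at 0 and 0 against 221 and 89.3 CPM in PD-1- Tregs, did not overlap in CD4 T cells and overlapped in PD-1+ Tregs. For Aldoc the interaction had an adjusted p of 0.0870, for Pkm 0.185 and for Slc2a1 0.377, so the larger fitted changes of these genes in PD-1- Tregs were not shown to differ from those in the other populations.

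The 2 lactate dehydrogenase isozymes had fitted changes of opposite sign. Ldhb, the form that favours lactate use, stood at 91.6 and 83.0 CPM in isotype PD-1- Tregs and 63.1 and 39.1 under anti-PD-L1, at 110 and 134 against 74.7, 79.1 and 65.3 in PD-1+ Tregs, and at 52.4 and 53.4 against 39.4, 51.7 and 49.95 in CD4 T cells. Its log2 changes were -0.77 ± 0.57, -0.74 ± 0.51 and -0.17 ± 0.51, none past the test (adjusted p 0.528, 0.814 and 1.00). As a share of the summed RPKM of Ldha and Ldhb, Ldhb made up 30.2% and 18.0% in isotype PD-1- Tregs and 5.37% and 6.08% in treated ones. In PD-1+ Tregs the share was 14.4% and 18.9% against 10.1%, 6.65% and 9.68%, and in CD4 T cells 7.47% and 7.46% against 3.99%, 6.67% and 4.77%. The share was lower in every treated library of each population. Under isotype both Treg types had higher shares than CD4 T cells, with no overlap. These shares are descriptions without a test.

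Enolase showed a like pattern at lower abundance. Eno3 made up 5.21% and 17.7% of the summed RPKM of Eno1 and Eno3 in isotype PD-1- Tregs against 2.25% and 0% in treated ones, 5.49% and 5.52% against 1.73%, 1.33% and 0.00989% in PD-1+ Tregs, and 1.87% and 1.44% against 1.04%, 0.592% and 0.643% in CD4 T cells. Every treated library was below its isotype libraries. In absolute terms Eno3 was low and scattered, at most 133 CPM in any library, and its fitted log2 changes had standard errors of 1.93 to 2.24. For glucose transporters, Slc2a1 made up 0% and 13.1% of the summed RPKM of Slc2a1 and Slc2a3 in isotype PD-1- Tregs and 56.0% and 56.8% in treated ones, against 71.8% to 79.7% in all CD4 T cell libraries. In PD-1+ Tregs it was 83.7% and 84.5% under isotype and 33.5%, 63.5% and 93.9% under treatment, so the arms overlapped and the treated mean was lower. The Slc2a1 share of isotype PD-1- Tregs was thus below that of every other library.

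**Figure D4:**
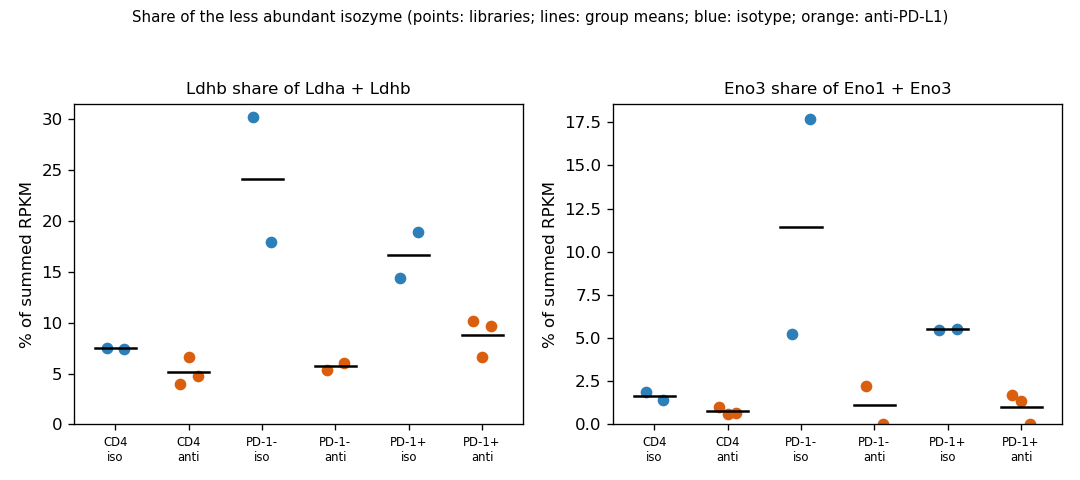
Share in percent of summed RPKM (y axes, from 0) that Ldhb takes of Ldha and Ldhb, and Eno3 of Eno1 and Eno3, in each library (points) with group means (lines), for isotype (blue) and anti-PD-L1 (orange). Within each population every treated point lies below every isotype point for both genes, with isotype PD-1- Tregs at 18.0% and 30.2% for Ldhb.

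Comparing PD-1+ with PD-1- Tregs, the split the study's sort was built on, 3 members were higher (Aldoc, Tpi1 and Galm) and none lower, where 3.80% of all genes were higher and 0.476% lower. The members' share of calls, 8.57%, stands beside a general shift: the median log2 change was 0.43 for members and 0.42 for all genes. Tpi1 spanned 82.7 to 295 CPM in PD-1- Tregs and 243 to 389 in PD-1+ Tregs, overlapping, with a log2 difference of 0.96 ± 0.21 (adjusted p = 0.0244). Aldoc spanned 0 to 62.1 CPM in PD-1- Tregs and 17.0 to 109 in PD-1+ Tregs, and Galm 0 to 221 and 47.3 to 211. For Aldoc and Galm the fitted difference rests on the isotype PD-1- libraries at 0 and is not a fold. Pgk1 was the 1 member with every PD-1+ library above every PD-1- library, where 3.24% of all genes were. Its gap was narrow, at 166 to 416 CPM against 105 to 163, and it missed the test (0.75 ± 0.25, adjusted p = 0.102). Without the 3 libraries with Y-linked counts only Galm was called.

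Split by treatment, a step chosen after seeing the data, Aldoc and Galm differed within isotype. These 2 members were higher in PD-1+ Tregs, where 0.782% of genes were higher and 0.0893% lower: Aldoc had 20.7 and 17.0 CPM against 0 and 0 (at least 68.4-fold higher, adjusted p = 0.0255) and Galm 174 and 107 CPM against 0 and 0 (at least 511-fold higher, adjusted p = 0.00118). Within anti-PD-L1 no member was called, where 1.47% of genes were higher and 0.305% lower, and the median member difference was 0.07. Aldoc then stood at 80.1, 29.6 and 109 CPM in PD-1+ and 62.1 and 35.6 in PD-1- Tregs, overlapping. Galm then had the lower mean in PD-1+ Tregs, at 111 CPM against 155 in PD-1- Tregs, also overlapping. The 12 macrophage and monocyte markers summed to 338 to 967 CPM in PD-1- and 3872 to 7585 CPM in PD-1+ Tregs, and 8027 to 8801 genes against 9662 to 11312 had counts. The part of these in the differences was not tested.

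Against CD4 T cells, PD-1- Tregs were lower in 2 members (Aldoc, adjusted p = 0.0287, and Galm, adjusted p = 0.00308) and higher in none, where 3.33% of genes were lower and 0.275% higher. The median difference of members was -0.45, against -0.94 for all genes. Within isotype the same 2 genes were called lower, where 0.789% of genes were lower and 0.171% higher, at 12.5 and 8.04 CPM in CD4 T cells for Aldoc (at least 37.3-fold lower in PD-1- Tregs) and 43.6 and 54.0 for Galm (at least 177-fold lower). Within anti-PD-L1 no member was called, where 0.811% of genes were lower and 0.0298% higher. There the means of both genes lay the other way, at overlapping levels. Aldoc had 48.8 CPM in PD-1- Tregs against 43.5 in CD4 T cells, and Galm 155 against 103. The calls over both treatments thus rest on the isotype PD-1- libraries at 0. The same isotype PD-1- libraries serve both population comparisons and the treatment comparison, so these results share them. In PD-1- Tregs 8027 to 8801 genes had counts, against 12119 to 14535 in CD4 T cells, where the 12 macrophage and monocyte markers summed to 2567 to 6903 CPM. Their part was not tested. Aldoc lost this call without CD4 isotype replicate 1 or 2, or CD4 anti-PD-L1 replicate 1 or 3 (adjusted p 0.0748 to 0.0971).

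Between PD-1+ Tregs and CD4 T cells no member was called with edgeR, where 0.171% of all genes were higher and 0.179% lower. DESeq2 called 3 members (Pfkm, Pgk1 and Ldhb) and 5.52% of all genes. An unadjusted edgeR p under 0.05 was found for 5 members and 12.4% of all genes. Hk1 was lower in every PD-1+ library, at 39.8 to 55.8 CPM (median 48.5) against 89.1 to 160 CPM in CD4 T cells, a log2 difference of -1.26 ± 0.48 (adjusted p = 0.339). Ldhb was higher in every PD-1+ library, at 65.3 to 134 CPM against 39.4 to 53.4 (0.92 ± 0.37, adjusted p = 0.349). Neither passed the test. They were the 1 member each way without overlap, where 4.72% of all genes were lower and 1.71% higher in every PD-1+ library.

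The members differed in how well replicates agreed. In isotype CD4 T cells the median coefficient of variation of the members was 9.19%, and no member exceeded 100%. In isotype PD-1- Tregs it was 61.5%, with 11 of the 30 members that had counts above 100%, among them Hif1a, Hk2 and Pgm2. Pgm2, a phosphopentomutase, stood at 0.0931 and 106 CPM there, and at 4.66 and 206 under anti-PD-L1. The regulators of flux were unsteady: Pfkfb3, which makes the activator of phosphofructokinase, stood at 97.5 and 0 CPM in isotype and 29.3 and 0 in treated PD-1- Tregs, and its relative Pfkfb4 was at 0 in 6 of 14 libraries. Bpgm, which makes 2,3-bisphosphoglycerate, spanned 23.4 to 129 CPM over all libraries with no comparison past the test. Pfkm was at 0 in 5 libraries, Pgam1, the phosphoglycerate mutase, spanned 0 to 40.4 CPM, and Mif 115 to 192 CPM.

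Other genes of glucose handling, from lists of neighbouring pathways, were seldom called. In PD-1- Tregs under anti-PD-L1, none of 18 further glycolysis and glucose entry genes, 12 genes of pyruvate entry to mitochondria, 13 of glycogen and gluconeogenesis, 28 further HIF pathway genes and 23 regulators of glucose use was called, and their medians lay between -0.25 and 0.00. Of 11 pentose phosphate genes, 1 fell: Rbks, ribokinase, stood at 28.1 to 70.2 CPM in isotype PD-1- Tregs and at 0 in both treated libraries, at least 207-fold lower (adjusted p = 0.0207). In PD-1+ Tregs, CD4 T cells and the average none of these 105 genes was called. Between populations, Rbks was called higher in PD-1+ than in PD-1- Tregs (adjusted p = 0.0430) at overlapping levels with means of 26.9 and 24.6 CPM, and Gpd2, a mitochondrial glycerol phosphate dehydrogenase, was at 28.3 to 44.1 CPM in CD4 T cells and at 0 in all 4 PD-1- libraries, at least 152-fold lower (adjusted p = 0.0374).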

How the data were processed

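Smart-seq2 libraries of 3 sorted T cell populations under anti-PD-L1 or isotype antibody were compared in 14 libraries of 6 groups taken from the labels. The authors deposited raw read counts and RPKM values (reads per kilobase, scaled to mapped reads) for 25124 genes. Per the submitters' processing notes, HISAT2 2.0.4, SAMtools, HOMER 3.12, DESeq2 and the build mm10 were used; the sources used here give no annotation, counting settings or strand, which leaves overlapping or copied genes uncertain.

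Counts were tested with edgeR 4.0.16 (R 4.3.3): filterByExpr at a minimum count of 10, TMM scaling, robust quasi-likelihood F-tests in 1 fit of 6 group means, and Benjamini-Hochberg adjustment over 13434 genes per comparison at 0.05. "Rose" and "fell" mark genes past it. Changes are log2 ± SE, with SE = change / √F. The common biological coefficient of variation was 1.22. Levels are CPM on TMM-scaled sizes. RPKM from the deposited table served for levels between genes and isozyme shares. An arm at 0 is set to a floor of 3 counts per library, which covers counting error only. The test was tried on simulated data with less spread than these libraries, so that trial does not show how the test performs here.

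The 35 members and the gene lists were chosen with earlier results of these data known. Every member called and, per role, the member with the largest change get values per library; pathway genes are named where called with a mean of at least 10 CPM. Same-numbered libraries were not paired in the main fit. Correlations of their deviations ran from -0.03 to 0.07 over 19 pairs with the same rep number. Over 18 pairs with the same number in the title's brackets they ran from 0.002 to 0.07, all above 0. Alternatives were other scalings, filters, DESeq2 1.42.0, limma 3.58.1, RPKM on a log2 scale, fewer libraries and blocks. Promoter windows come from RefSeq (GRCm38.p6). Figures were drawn with matplotlib 3.10.9.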

Additional observations from a re-analysis of the deposited data

Results flagged for a closer look

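The treatment effect on Galm, galactose mutarotase, differed between the 3 populations by edgeR's interaction test (adjusted p = 0.00853). Levels stood at 0 and 0 CPM against 221 and 89.3 in PD-1- Tregs, at 43.6 and 54.0 against 89.7, 132 and 88.3 in CD4 T cells, and at 174 and 107 against 75.1, 211 and 47.3 in PD-1+ Tregs. The adjusted p ran from 0.00194 to 0.0274 when each library was left out in turn.

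Counts of 4 Y-linked genes, which the comparisons do not use, reached 2767 in anti-PD-L1 CD4 T cell replicate 3, 2966 in anti-PD-L1 PD-1- Treg replicate 2 and 2929 in anti-PD-L1 PD-1+ Treg replicate 3. No isotype library had more than 1 such count, and no comparison with isotype was possible within such libraries.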

How the results depend on the processing

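Counts of called members are given in the order PD-1- treatment, averaged treatment, PD-1+ against PD-1- Tregs, PD-1- Tregs against CD4 T cells and interaction, and stood at 5, 5, 3, 2 and 1. DESeq2 called 13, 19, 8, 6 and 4, plus 2 for treatment in PD-1+ Tregs and 3 for that population against CD4 T cells, both 0 in edgeR. Over all genes it called 20.5%, 14.1%, 22.1%, 23.3% and 7.69%, so its members' shares were near or below the rest between Treg types (22.9%) and between PD-1- Tregs and CD4 T cells (17.1%). Voom with quality weights called 0, 0, 0, 0 and 0, but 9 for treatment in CD4 T cells (2.41% of all genes) and 2 (5.68%) for PD-1+ Tregs against CD4 T cells; the cause was not tested. Plain voom called 5 in PD-1- Tregs against CD4 T cells, where it called 25.0% of all genes, and 3 in the interaction (2.89%). For PD-1- treatment it called 5 (5.11%), of which only Aldoc and Galm were among edgeR's 5, and Pkm, Tpi1 and Ldha were lost. Tests on log2 RPKM with 0.1 added called 9 in PD-1- treatment and 4 in PD-1- Tregs against CD4 T cells, and with 1 added 8 in PD-1- treatment. Upper quartile scaling called 3 in PD-1- treatment. With only the compared libraries, a fit with fewer samples, 0 were called in PD-1- treatment, 1 between the Treg types and 5 between PD-1- Tregs and CD4 T cells.

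Leaving out 1 library gave 3 to 9, 1 to 10, 2 to 7, 1 to 6 and 1 to 3; a lone remaining library is assumed to vary like the other groups. The highest counts came without isotype PD-1- Treg replicate 2. Without the 3 libraries with Y-linked counts, 1 member was called between the Treg types and 1 between PD-1- Tregs and CD4 T cells; this alternative was chosen after seeing the data. With a replicate block by rep number the counts were 3, 1, 2, 1 and 0. By the number in the title's brackets they were 3, 1, 1, 1 and 1. The labels do not say whether either number pairs the libraries, but the 3 libraries with Y-linked counts share the bracket number 3.

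In counts also chosen after seeing the data, members above without overlap in all 3 populations numbered 5 to 7 over 4 scalings, 11 without the 3 libraries with Y-linked counts, and 7 to 10 with 1 library left out. Members below numbered 0 with upper quartile scaling and 1 to 2 with 1 library left out. No called member changed sign under any alternative run.

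Depth was 10638848 to 15030804 counts per library and the common biological coefficient of variation was 1.22 with 2 or 3 libraries per group. Members near 0 CPM, such as Vegfa, were not resolved at this depth.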
